A study of Mus musculus with 6 samples.

Results

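The genes described here are 10 that blood stem cells share with endothelium, the cell layer that lines blood vessels: the angiopoietin receptor genes Tek and Tie1, the ligand gene Angpt1, the VEGF receptor genes Kdr, Flt1 and Flt4, and the genes Rhoj, Eng, Pecam1 and Emcn. They are a list set by name, with earlier results of these data known, out of 45706 genes in the count table, and all 10 were abundant enough to be among the 15184 genes tested. Expression was measured by RNA-seq in LSK cells (lineage-negative, Sca-1+, c-Kit+), the bone marrow compartment that holds hematopoietic stem cells and multipotent progenitors, with 1 library for each of 3 Ctrl and 3 cKO mice. Ctrl mice were heterozygous (Setd1b FD/+; RC/+) and cKO mice homozygous (Setd1b FD/FD; RC/+) for a conditional allele of Setd1b, which encodes a histone H3 lysine 4 methyltransferase. All 6 were C57BL/6 males carrying 1 copy of the tamoxifen-inducible Rosa26-Cre-ERT2 transgene, and all received 4.5 mg of tamoxifen by gavage per day, for 4 days and, after a pause of 3 days, for 2 more, and were killed 3 days after the last gavage. This is the scheme in the sample labels, and the study's methods give a different number of doses. The mice were 16 weeks old, except cKO 3, which was 17 weeks old. Cre removes exon 5 of the conditional allele and shifts the reading frame, so that the controls carry a deleted copy too and are not wild type. The Cre is active in almost all tissues, so that bone marrow niche cells are recombined as well as the sorted cells.

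Tie receptors and VEGF receptors are receptor tyrosine kinases best known for building and stabilizing vessels. Angiopoietin-1, which bone marrow cells including stem cells secrete, activates the Tek product Tie2, and Tie1 is a partner receptor that modulates Tie2 signalling. In the bone marrow, Tie2 marks quiescent long-term stem cells, and stem cells and endothelium arise from common progenitors in the embryo, where Kdr is required for both. Endoglin, PECAM-1 and endomucin are surface glycoproteins of endothelium that are also found on stem cells.

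Of the 10 genes, 5 were higher and 1 was lower in the libraries labelled cKO, with an adjusted p under 0.05 in the quasi-likelihood test of edgeR (adjusted by Benjamini and Hochberg's method over all 15184 genes). The receptor genes Tek, Tie1, Kdr and Flt4 and the GTPase gene Rhoj were higher, by 1.72-fold to 3.72-fold. Pecam1 was lower, at 0.797-fold of Ctrl, and Angpt1, Flt1, Eng and Emcn did not pass the threshold. Among all genes tested, 3.88% were called higher and 3.79% lower. An unadjusted p under 0.05 with edgeR, which is also given for the gene lists below, was found for 3470 of the 15184. In 6 of the 10 genes the 3 Ctrl and the 3 cKO values did not overlap, against 27.3% of all genes tested. The median log2 fold change of the 10 genes was 0.59, and that of all genes tested was 0.00. In the libraries labelled cKO the 5 higher genes lay between 59.5 CPM (the read count normalized to library size) for Tie1 and 3.05 CPM for Flt4, and the 3 most abundant of the 10 genes, Angpt1, Eng and Pecam1, were not among them.

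**Figure D1:**
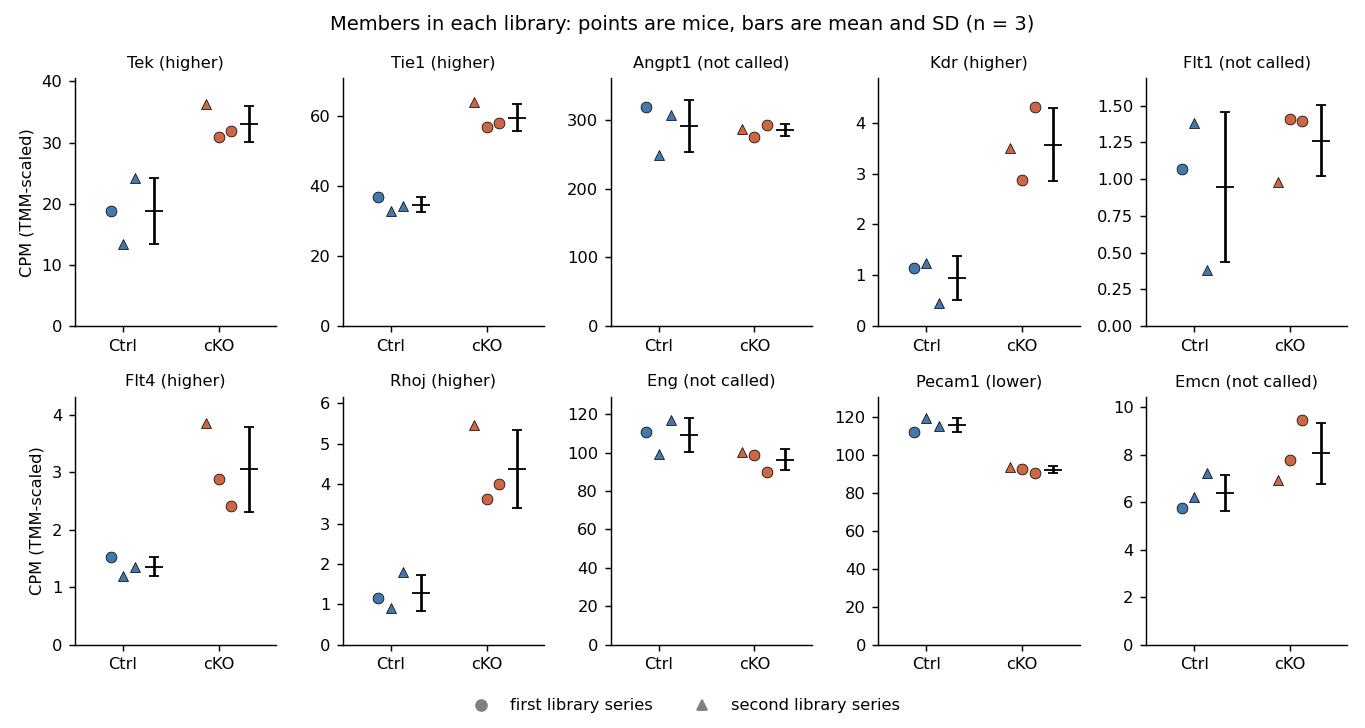
Each panel plots 1 gene in CPM, scaled by TMM, on an axis that starts at 0, with 1 point per mouse (Ctrl in blue, cKO in orange), circles for the first and triangles for the second library series, and a bar for the mean and SD of 3 mice. The cKO points lie above all Ctrl points for Tek, Tie1, Kdr, Flt4 and Rhoj and below them for Pecam1, and the groups overlap for Angpt1, Flt1, Eng and Emcn.

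Total counts lay between 13003573 and 21277519 per library. The library numbers form 2 series, each with both genotypes: Ctrl 1, cKO 1 and cKO 2 in the first, and Ctrl 2, Ctrl 3 and cKO 3 in the second. The RNA genes Gm42418 and Gm26917 took 4.45% to 5.30% of counts in the first series and 7.52% to 9.04% in the second. The LSK markers Kit and Ly6a (which encodes Sca-1) were at 395 CPM or more and 35.8 CPM or more in every library, while the T cell and neutrophil markers Cd3e, Cd8a and Ly6g were at 2 counts or fewer in every library. Other lineage markers were detected in every library, with 17 to 53 counts for the T cell marker Cd4 and 468 to 870 for the myeloid marker Itgam. The targeted gene, Setd1b (chr5:123142193-123168629, + strand, GRCm38), had 221, 194 and 223 CPM in Ctrl 1, 2 and 3 and 272, 288 and 314 CPM in cKO 1, 2 and 3. Its count over the whole gene was thus higher in the libraries labelled cKO (log2 fold change 0.46 ± 0.073 SE, adjusted p = 0.0015 with edgeR). This count includes the many exons outside the deleted exon 5 and does not check the deletion, so that Ctrl and cKO stand below for what the libraries are labelled. At later times after tamoxifen, the study reports complete recombination by PCR in sorted stem and progenitor cells. It also reports loss of Setd1b mRNA in multipotent progenitors by qRT-PCR, with a primer in exon 5.

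The libraries labelled cKO held more of both angiopoietin receptor transcripts. Tek (ENSMUSG00000006386, chr4:94739289-94874976, + strand), which encodes the receptor Tie2, had 18.8, 13.4 and 24.1 CPM in Ctrl 1, 2 and 3 and 30.9, 31.8 and 36.3 CPM in cKO 1, 2 and 3. Every cKO value lay above every Ctrl value, and the Ctrl mice were spread more widely than the cKO mice. The mean was 18.8 ± 5.36 CPM in Ctrl and 33.0 ± 2.91 CPM in cKO (SD, n = 3 each), a 1.77-fold difference (log2 fold change 0.82 ± 0.16 SE, 95% interval 0.47 to 1.17, adjusted p = 0.0058 with edgeR). Within the first and second library series the difference in log2 CPM was 0.73 and 1.01.

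Tie1 (ENSMUSG00000033191, chr4:118471191-118490061, - strand) had 36.9, 32.9 and 34.3 CPM in Ctrl 1, 2 and 3 and 56.7, 57.9 and 63.9 CPM in cKO 1, 2 and 3. Both groups were tight and lay far apart compared with their spread. The means were 34.7 ± 2.03 and 59.5 ± 3.86 CPM (SD, n = 3 each). The difference was 1.72-fold, or 0.78 ± 0.087 (SE) on the log2 scale, at an adjusted p of 6.0e-05 with edgeR. It was the smallest p among the 10 genes, and the difference was 0.63 and 0.93 within the 2 series. The ratio of Tie1 to Tek, each per kilobase of exon, was 1.88, 2.35 and 1.36 in Ctrl 1, 2 and 3 and 1.76, 1.74 and 1.69 in cKO 1, 2 and 3, so that the groups overlapped (two-sided exact permutation test, p = 0.7).

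The ligand gene gave no call. Angpt1 (ENSMUSG00000022309, chr15:42424727-42676977, - strand) was the most abundant of the 10 genes, at 319, 248 and 307 CPM in Ctrl 1, 2 and 3 and 275, 293 and 287 CPM in cKO 1, 2 and 3. The cKO values lay within the range of the Ctrl values. The log2 fold change was -0.03, with a 95% interval of -0.21 to 0.14 (adjusted p = 0.87 with edgeR), so that a change of the size seen for Tek lies outside the interval. Per kilobase of exon there was 18.8, 20.5 and 14.1 times as much Angpt1 as Tek in Ctrl 1, 2 and 3 and 9.87, 10.2 and 8.75 times in cKO 1, 2 and 3. These ratios did not overlap between the groups (17.8 ± 3.33 against 9.61 ± 0.757, SD, n = 3 each). The two-sided exact permutation test gave p = 0.1, the smallest that 3 against 3 mice allow, and 0.15 after Benjamini-Hochberg adjustment over the 3 ratios tested. An antisense gene, Gm17473, overlaps Angpt1, and reads were counted by strand.

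The other ligands and signalling partners of Tie2 gave no call with edgeR. Of 10 genes listed, 5 were tested, 0 passed the threshold, 2 had an unadjusted p under 0.05, and DESeq2 also called 0. These 2 were Foxo1, the transcription factor that Tie2 signalling restrains through Akt (11.1 ± 0.804 against 15.1 ± 1.94 CPM, log2 fold change 0.44, adjusted p = 0.077), and Dok2, an adaptor protein of Tie2 (28.2 ± 7.15 against 38.8 ± 6.16 CPM, 0.47, adjusted p = 0.082). Tnip2, an inhibitor of NF-kB signalling that binds Tie2, differed by 0.14 on the log2 scale (adjusted p = 0.49 with edgeR). The antagonist ligand gene Angpt2 stayed at 0.381 CPM or less, Angpt4 was at 0 counts in every library, and the gene of the endothelial Tie2 phosphatase, Ptprb, was at 0 in the Ctrl libraries and at 0.335 CPM or less in the cKO libraries.

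Transcripts of the VEGF receptors were scarce, and 2 of the 3 were higher in cKO. Their summed level was 2.18 to 3.81 CPM in the Ctrl and 7.17 to 8.35 CPM in the cKO libraries. Kdr (ENSMUSG00000062960, chr5:75932827-75978458, - strand), which encodes VEGFR2, the main signalling receptor for VEGF-A, had 15, 26 and 7 counts in Ctrl 1, 2 and 3 and 43, 68 and 50 counts in cKO 1, 2 and 3. The groups did not overlap in CPM either, with 1.15, 1.24 and 0.448 CPM in Ctrl and 2.88, 4.32 and 3.51 CPM in cKO. The fold change was the largest of the 10 genes, 3.72-fold (0.945 ± 0.433 against 3.57 ± 0.721 CPM, SD, n = 3 each). On the log2 scale it was 1.90 ± 0.39 (SE), the 95% interval ran from 1.07 to 2.72, and the adjusted p was 0.0069 with edgeR. Without cKO 2, the highest library, the log2 fold change was 1.74 and the adjusted p 0.054, just short of the threshold. Within the 2 series the difference in log2 CPM was 1.52 and 2.04.

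Flt4 (ENSMUSG00000020357, chr11:49609263-49652739, + strand), which encodes VEGFR3, the receptor for VEGF-C and VEGF-D in lymphatic vessels, had 20, 25 and 21 counts in Ctrl 1, 2 and 3 and 43, 38 and 55 counts in cKO 1, 2 and 3. All cKO values were higher (1.36 ± 0.170 against 3.05 ± 0.737 CPM, SD, n = 3 each, 2.26-fold), and its log2 fold change of 1.17 ± 0.34 SE passed the threshold narrowly (adjusted p = 0.047 with edgeR). In 12 of 16 other settings it did not pass, among them those that left out any 1 of the 6 libraries, with log2 fold changes of 0.97 to 1.32 over all 16 and adjusted p-values from 0.030 to 0.19. Flt4 is therefore the least firm of the 5 calls.

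Flt1 (ENSMUSG00000029648, chr5:147561604-147726011, - strand) encodes VEGFR1, which binds VEGF-A tightly and signals weakly, and in its soluble form acts as a decoy. It had 1.07, 1.38 and 0.384 CPM in Ctrl 1, 2 and 3 and 1.41, 1.40 and 0.982 CPM in cKO 1, 2 and 3, so that the groups overlapped. The counts behind these values were 6 to 29 per library. The log2 fold change was 0.39, and its 95% interval of -0.63 to 1.42 (adjusted p = 0.69 with edgeR) leaves room for a change in either direction at this depth. Ratios of Kdr to Flt1 per kilobase of exon were 1.6, 1.34 and 1.74 in Ctrl 1, 2 and 3 and 3.06, 4.62 and 5.34 in cKO 1, 2 and 3. These did not overlap (1.56 ± 0.205 against 4.34 ± 1.17, SD, n = 3 each), with p = 0.1 in the two-sided exact permutation test and 0.15 after adjustment over the 3 ratios.

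**Figure D2:**
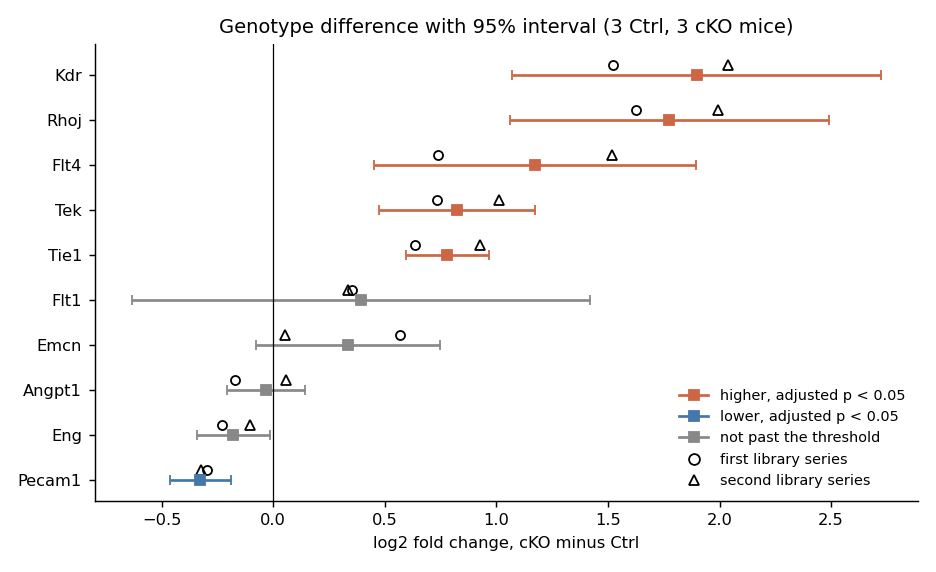
Squares show the fitted log2 fold change, cKO minus Ctrl, of each gene with its 95% interval (n = 3 mice per genotype), and open circles and triangles show the difference in mean log2 CPM within the first and the second library series. Kdr, at 1.90, and Rhoj, at 1.77, are highest, the intervals of Flt1, Emcn and Angpt1 cross 0, and Angpt1 is the only gene with opposite signs in the 2 series (-0.17 and 0.06).

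The ligands and co-receptors of the VEGF receptors went the other way from Kdr where they passed the test. Of 12 genes listed, 10 were tested, 1 was higher and 2 were lower. Vegfa, the main VEGF ligand gene, had 26.9, 30.8 and 20.5 CPM in Ctrl 1, 2 and 3 and 15.4, 17.9 and 16.6 CPM in cKO 1, 2 and 3, with a log2 fold change of -0.65 ± 0.14 SE (adjusted p = 0.011 with edgeR). Nrp1, the gene of the co-receptor neuropilin-1, had 10.1, 14.8 and 11.3 CPM in Ctrl and 6.43, 6.23 and 5.19 CPM in cKO, with a log2 fold change of -1.02 ± 0.19 SE (adjusted p = 0.0034 with edgeR). For both genes every cKO value lay below every Ctrl value. The higher gene was Plcg1, which encodes phospholipase C gamma 1, an enzyme recruited by activated VEGFR2 and by many other receptors (101 ± 7.64 against 140 ± 4.51 CPM, log2 fold change 0.47, adjusted p = 0.00080). Vegfb (log2 fold change -0.26, adjusted p = 0.11), Vegfc (0.45, adjusted p = 0.45) and the co-receptor gene Nrp2 (-0.34, adjusted p = 0.64) did not pass with edgeR. The ligand genes Vegfd and Pgf were too scarce to test, at 0.286 CPM or less in every library.

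Both Kdr and Flt1 lie near genes of hematopoietic receptors. Kdr lies 276 kb from Kit, the stem cell factor receptor gene, with 0 protein-coding genes between them, and Kit gave a log2 fold change of -0.04 (adjusted p = 0.84 with edgeR). On the far side of Kit, 735 kb from Kdr, Pdgfra was too scarce to test, at 0.715 CPM or less. Flt1 lies 161 kb from Flt3, the cytokine receptor gene of multipotent progenitors, with Pan3 between them, and Flt3 had 249 ± 49.3 CPM in Ctrl and 200 ± 22.0 CPM in cKO (SD, n = 3 each, log2 fold change -0.31, adjusted p = 0.12 with edgeR).

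Rhoj (ENSMUSG00000046768, chr12:75308322-75401456, + strand) encodes a small GTPase related to Cdc42 that directs endothelial cell movement. It had 1.15, 0.906 and 1.79 CPM in Ctrl 1, 2 and 3 and 3.62, 4.00 and 5.47 CPM in cKO 1, 2 and 3, from 15 to 28 and from 54 to 78 counts. The lowest cKO library thus lay above the highest Ctrl library. The log2 fold change was 1.77 ± 0.34 SE (95% interval 1.06 to 2.49, 3.42-fold, adjusted p = 0.0043 with edgeR), and it was 1.63 and 1.99 within the 2 series. Of 12 genes listed as relatives, effectors and upstream receptors of RhoJ, 9 were tested, 0 passed the threshold with edgeR or with DESeq2, and 1 had an unadjusted p under 0.05. That gene was Arhgef7, an exchange factor of the Pak and Git complex (69.3 ± 2.34 against 79.1 ± 1.99 CPM, log2 fold change 0.19, adjusted p = 0.12). Cdc42 (log2 fold change -0.08, adjusted p = 0.52) and Rhoq (0.18, adjusted p = 0.59) gave the next smallest p-values with edgeR.

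Among the surface glycoprotein genes, Pecam1 was lower, and Eng and Emcn did not pass the threshold. Pecam1 (ENSMUSG00000020717, chr11:106654217-106750628, - strand), which encodes the adhesion molecule CD31 of endothelial and blood cells, had 112, 119 and 115 CPM in Ctrl 1, 2 and 3 and 92.6, 90.3 and 93.6 CPM in cKO 1, 2 and 3. The fall was small and the spread smaller still, and the groups did not overlap. The log2 fold change was -0.33 ± 0.064 SE (95% interval -0.46 to -0.19, adjusted p = 0.0054 with edgeR). Tested against a change of 1.2-fold instead of no change, Pecam1 was not called (adjusted p = 0.59).

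Eng (ENSMUSG00000026814, chr2:32646595-32682669, + strand), which encodes endoglin, a co-receptor for BMP9 and TGF-beta, had 111, 99.5 and 117 CPM in Ctrl 1, 2 and 3 and 98.6, 90.1 and 100.4 CPM in cKO 1, 2 and 3. The highest cKO library lay just above the lowest Ctrl library. Its log2 fold change was -0.18, with a 95% interval of -0.34 to -0.02 (unadjusted p = 0.033, adjusted p = 0.18 with edgeR). Emcn (ENSMUSG00000054690, chr3:137341067-137432185, + strand), which encodes the sialomucin endomucin, had 5.74, 6.20 and 7.23 CPM in Ctrl 1, 2 and 3 and 7.77, 9.47 and 6.94 CPM in cKO 1, 2 and 3. The values of cKO 3 and Ctrl 3 crossed over. The log2 fold change was 0.34, with a 95% interval of -0.08 to 0.75 (adjusted p = 0.33 with edgeR), and it was 0.57 in the first series and 0.05 in the second.

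Among the genes of endoglin's receptor partners, ligands and SMAD proteins, 15 were listed and 12 were tested. With edgeR 4 were higher and 0 were lower, and DESeq2 called 4 higher and 0 lower. An unadjusted p under 0.05 was found for 8, of which 2 had lower means in cKO, Smad7 (log2 fold change -0.42, adjusted p = 0.12 with edgeR) and Tgfb1 (-0.16, adjusted p = 0.12). Bmpr2, the type II BMP receptor gene, had 82.6 ± 4.98 CPM in Ctrl and 114 ± 2.94 CPM in cKO (SD, n = 3 each, log2 fold change 0.46, adjusted p = 0.00087). Tgfbr2, the type II TGF-beta receptor gene (log2 fold change 0.32, adjusted p = 0.035), Smad5, which carries BMP signals (0.23, adjusted p = 0.041), and Smad4, the shared SMAD (0.30, adjusted p = 0.042), were also higher with edgeR. Acvrl1, the gene of endoglin's main endothelial partner receptor ALK1, stood at 1.37 ± 0.583 CPM in Ctrl and 1.21 ± 0.193 CPM in cKO (adjusted p = 0.86 with edgeR).

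Of 13 genes for other junction and sialomucin proteins of endothelium, 11 were tested, 3 were higher and 1 was lower. F11r, the gene of junctional adhesion molecule A, had 6.35, 6.20 and 5.69 CPM in Ctrl 1, 2 and 3 and 15.4, 14.5 and 14.4 CPM in cKO 1, 2 and 3 (log2 fold change 1.28 ± 0.15 SE, adjusted p = 9.6e-05 with edgeR). Esam, an endothelial adhesion molecule that also marks stem cells, had 9.66 ± 2.52 CPM in Ctrl and 22.2 ± 5.76 CPM in cKO (log2 fold change 1.19, adjusted p = 0.0017 with edgeR). The lower gene was Podxl, which encodes the CD34-related sialomucin podocalyxin (34.0 ± 5.17 against 21.5 ± 3.42 CPM, log2 fold change -0.66, adjusted p = 0.0070 with edgeR). The third higher gene, Mcam, lies outside the rule by which genes were named and rests on few reads, 0.128 to 0.381 CPM in the Ctrl and 0.762 to 1.61 CPM in the cKO libraries (adjusted p = 0.031 with edgeR). Mcam passed the filter on low counts only through the cKO libraries. Cd99 was not analysed here.

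Transcription factors that endothelium and stem cells share, most of them ETS factors or partners of GATA2 and TAL1, were also listed. Of 17 genes listed, 15 were tested, 3 were higher and 0 were lower with edgeR, and 7 had an unadjusted p under 0.05. Among all genes tested, 3.88% were called higher and 3.79% lower, and 3470 of 15184 had an unadjusted p under 0.05. All 3 were ETS factor genes: Ets2 (24.8 ± 1.2 against 39.4 ± 2.74 CPM, log2 fold change 0.67, adjusted p = 0.00066), Fli1 (150 ± 6.24 against 189 ± 7.07 CPM, 0.33, adjusted p = 0.0048) and Elk3 (60.2 ± 0.987 against 74.8 ± 4.57 CPM, 0.31, adjusted p = 0.019). DESeq2 called 4 higher, these 3 and Epas1, and 0 lower.

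Reference promoters are shown for Tek, Kdr and Rhoj, 3 genes called higher that differ in their CpG content, and for Flt1, the VEGF receptor gene that was not called. The Setd1b complex holds CXXC1, a subunit that binds unmethylated CpG, and ETS proteins are known regulators of endothelial genes. Each sequence is the 250 bases before the RefSeq start site in GRCm38.p6, 5′ to 3′ on the gene's strand, in lower case with CpG in capitals. They lie at chr4:94739039-94739288 (Tek, + strand), chr5:75978456-75978705 (Kdr, - strand), chr12:75308063-75308312 (Rhoj, + strand) and chr5:147726012-147726261 (Flt1, - strand).
Tek: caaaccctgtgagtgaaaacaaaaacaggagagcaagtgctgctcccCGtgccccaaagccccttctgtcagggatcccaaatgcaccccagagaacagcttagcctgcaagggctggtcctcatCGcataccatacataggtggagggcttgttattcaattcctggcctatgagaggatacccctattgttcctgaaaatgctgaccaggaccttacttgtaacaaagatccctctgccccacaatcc
Kdr: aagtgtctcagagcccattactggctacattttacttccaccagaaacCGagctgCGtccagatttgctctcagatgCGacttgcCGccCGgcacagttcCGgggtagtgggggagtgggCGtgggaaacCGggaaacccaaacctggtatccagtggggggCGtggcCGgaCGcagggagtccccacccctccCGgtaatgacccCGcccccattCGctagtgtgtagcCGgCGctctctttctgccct
Rhoj: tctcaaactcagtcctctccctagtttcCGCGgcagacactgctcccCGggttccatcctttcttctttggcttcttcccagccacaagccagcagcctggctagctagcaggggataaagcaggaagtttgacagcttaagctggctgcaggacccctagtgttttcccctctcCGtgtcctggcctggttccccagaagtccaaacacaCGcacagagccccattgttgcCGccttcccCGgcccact
Flt1: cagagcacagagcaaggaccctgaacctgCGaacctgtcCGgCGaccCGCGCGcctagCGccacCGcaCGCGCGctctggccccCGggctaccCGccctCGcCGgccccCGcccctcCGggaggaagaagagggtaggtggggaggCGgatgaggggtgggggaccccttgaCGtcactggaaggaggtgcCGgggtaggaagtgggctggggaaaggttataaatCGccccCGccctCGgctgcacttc
RefSeq promoters were found for 8 of the 10 genes, all but Angpt1 and Pecam1. In 6 of these 8 the RefSeq start lay within 11 bases of the start in the count table, while for Tie1 and Flt4 it lay 212 and 416 bases away. The window held 2 CpG in Tek, 6 in Tie1, 7 in Rhoj and 16 each in Kdr and Flt4, the 5 genes called higher, and 23 in Flt1, 4 in Eng and 1 in Emcn, which were not called. The median over 32851 promoters was 6, so that the genes called higher lay on both sides of it. The ETS core letters CGGAAG or AGGAAG, on either strand, were in 5 of the 8 windows (Emcn, Eng, Flt1, Rhoj and Tie1) and in 39.2% of all promoters. The letters AGATAA, known to be bound by factors such as GATA2, were in 0 of the 8 windows and in 9.99% of all promoters, and the E-box CAGGTG was in that of Flt4 and in 17.2% of all promoters. A match is a description of these letters and not a site of binding.

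Per kilobase of exon, the 10 genes covered almost the whole range of expression in LSK cells. In CPM per kilobase of exon, the mean in Ctrl was 68.5 for Angpt1, 27.0 for Eng, 18.6 for Pecam1, 7.06 for Tie1, 3.99 for Tek and 1.18 for Emcn. Rhoj (0.198), Flt4 (0.165), Kdr (0.105) and Flt1 (0.0700) followed at the low end. Neighbours in this order did not overlap, except Rhoj with Flt4 and Kdr with Flt1. In the libraries labelled cKO the first 7 genes kept their order, at 67.0, 23.8, 14.8, 12.1, 7.01, 1.49 and 0.673. Kdr (0.395) stood at the level of Flt4 (0.371), with overlapping values, and Flt1 (0.0935) below both. Pecam1 stood at 18.6 and Tie1 at 7.06 in Ctrl, and at 14.8 and 12.1 in cKO.

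**Figure D3:**
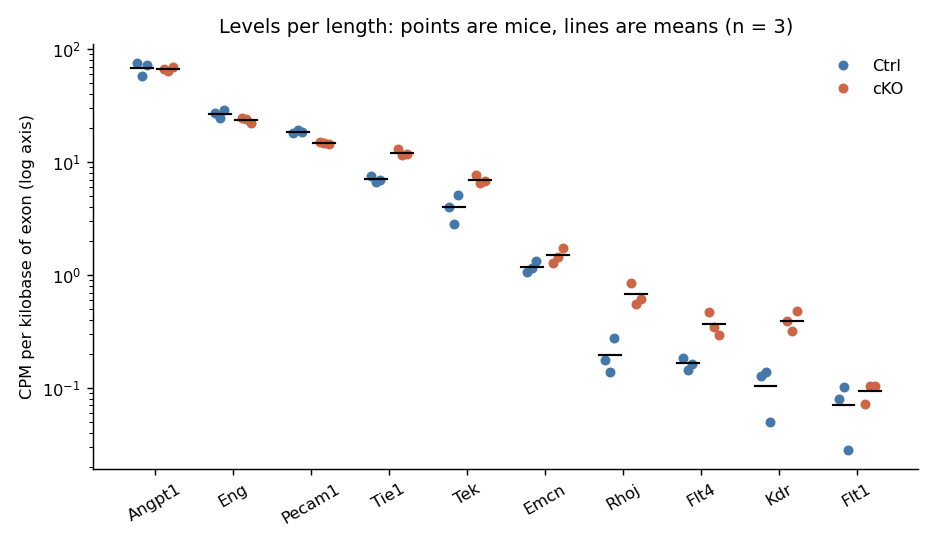
Points show the level of each gene in each mouse, in CPM per kilobase of exon on a log axis, with Ctrl in blue, cKO in orange and lines at the mean of 3 mice. The genes are ordered by their Ctrl mean, from Angpt1 at 68.5 to Flt1 at 0.0700, and the largest steps between the genotypes are those of Rhoj and Kdr.

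Of the endothelial markers, 12 of 15 were too scarce to test, while Robo4 (90 to 170 counts per library), Plvap (46 to 78) and Ecscr (22 to 64) were detected in every library. Sca-1 is also found on marrow endothelium, and the antibodies named for the sort include none against CD31 or VE-cadherin. Of 15 endothelial markers, 3 were tested and 0 called with edgeR, 2 had an unadjusted p under 0.05, and DESeq2 called 0. The other 12 had at most 15 counts in any library, 5 of them at most 3, and Sox17 had 0 counts throughout. Cdh5, which encodes VE-cadherin, the defining endothelial junction protein, had 0 to 11 counts per library, or at most 0.737 CPM. The tested markers were Plvap (4.01 ± 0.847 against 4.17 ± 0.550 CPM, adjusted p = 0.92), Ecscr (2.07 ± 0.589 against 3.58 ± 0.529 CPM, log2 fold change 0.79, adjusted p = 0.14) and Robo4 (6.08 ± 1.59 against 9.20 ± 2.59 CPM, 0.61, adjusted p = 0.14), of which Robo4 is expressed in stem cells too. The summed level of the list was 12.9 to 14.3 CPM in the Ctrl and 15.3 to 22.4 CPM in the cKO libraries, with no overlap. Most of the difference between the group means came from Robo4 and Ecscr. The part of the list in the higher levels of Tek, Tie1, Kdr, Flt4 and Rhoj was not tested.

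Of the markers of long-term stem cells, 8 of 12 were higher, as were Tek, Tie1, Kdr, Flt4 and Rhoj. All 12 listed were tested and 0 were lower with edgeR, with a median log2 fold change of 0.65, and their summed level was 324 to 356 CPM in the Ctrl and 426 to 495 CPM in the cKO libraries. Hoxb5, among the 8, had 1, 6 and 3 counts in Ctrl 1, 2 and 3 and 16, 17 and 18 counts in cKO 1, 2 and 3. Hoxb5 passed the filter on low counts only through the cKO libraries, and it is part of the 8 and of the median. The smallest adjusted p-values with edgeR belonged to Fgd5 (12.9 ± 2.09 against 37.0 ± 1.90 CPM, log2 fold change 1.53, adjusted p = 2.7e-06), Procr (1.43, adjusted p = 0.00036) and Esam, which also stands among the junction genes above. The 4 that did not pass were Slamf1 (log2 fold change -0.01), Mllt3 (0.02), Hlf (0.07) and Vwf (0.12), with adjusted p-values of 0.68 to 0.96 with edgeR. Of the 7 genes listed for lymphoid-primed and multipotent progenitors, all were tested and 4 were lower, led by Dntt (347 ± 178 against 6.00 ± 2.40 CPM, adjusted p = 4.9e-08 with edgeR) and also including Il7r (adjusted p = 0.014 with edgeR). Their summed level was 924 to 1415 CPM in the Ctrl and 575 to 638 CPM in the cKO libraries. In bulk libraries, more cells of a type and more RNA per cell cannot be told apart, and the part of either list in the levels of the 10 genes was not tested.

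Other cell types also carry some of these genes. Of the 7 genes listed for bone marrow stroma, 3 were tested, of which Pdgfrb was higher (27.9 ± 2.36 against 49.5 ± 7.07 CPM, adjusted p = 0.00034 with edgeR) and Cxcl12 (log2 fold change -2.08, adjusted p = 0.0054) and Col1a2 (-1.27, adjusted p = 0.011) were lower. The summed stromal level was 34.3 to 41.7 CPM in Ctrl and 48.0 to 60.5 CPM in cKO, mostly Pdgfrb. Megakaryocytes, which carry Pecam1, had 6 of 7 listed genes tested and 1 lower, Pf4 (25.9 ± 1.86 against 10.7 ± 1.27 CPM, adjusted p = 2.3e-05 with edgeR), and summed levels of 117 to 145 CPM in Ctrl and 91.4 to 123 CPM in cKO, which overlapped. Monocytes and macrophages, which carry Pecam1 and Flt1, had 6 of 7 listed genes tested and 3 lower, Ly6c2 (adjusted p = 0.0016), Csf1r (adjusted p = 0.0086) and Cd68 (adjusted p = 0.030). Their summed level was 63.9 to 89.3 CPM in Ctrl and 35.2 to 46.7 CPM in cKO, and its part in the lower level of Pecam1 was not tested. The 3 tested monocyte and macrophage genes that were not called went both ways. Adgre1 had a higher mean in cKO (0.781 ± 0.279 against 1.52 ± 0.893 CPM, log2 fold change 0.98, adjusted p = 0.27 with edgeR). C1qa (log2 fold change -0.06, adjusted p = 0.96) and C1qb (-0.66, adjusted p = 0.34) had lower means with edgeR. The myeloid marker Itgam, outside this list, was higher in cKO, as given below.

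**Figure D4:**
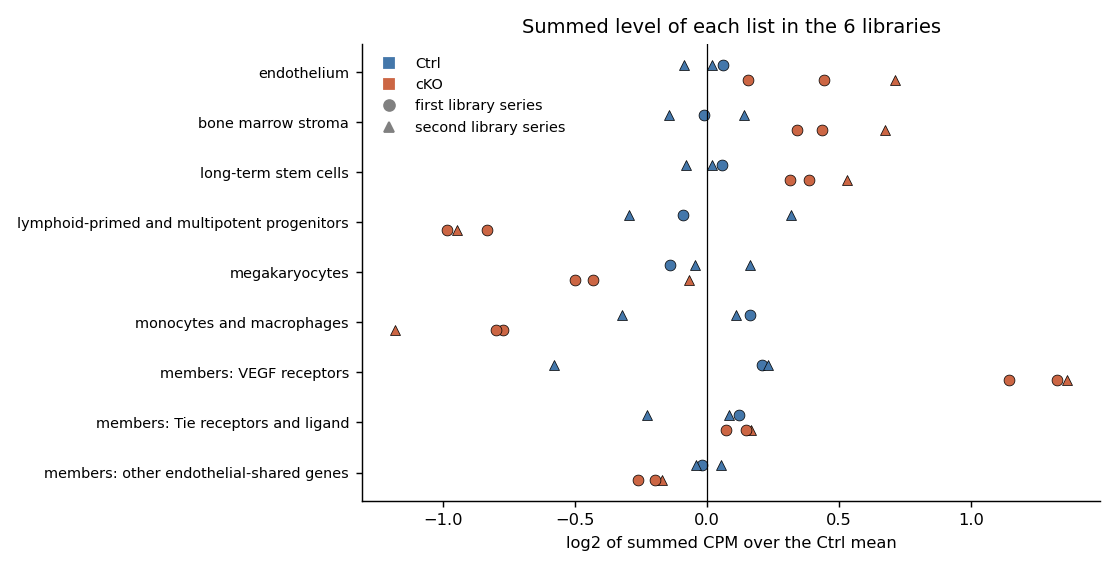
Points show the summed CPM of each gene list in each library as a log2 ratio to the mean of the 3 Ctrl libraries, with Ctrl in blue, cKO in orange, and circles and triangles for the first and second library series. The VEGF receptor genes, at 7.17 to 8.35 CPM in cKO, lie furthest to the right. The cKO points of the long-term stem cell, endothelial and stromal lists also lie right of all Ctrl points. Those of the lymphoid-primed and monocyte lists and of the other endothelial-shared genes lie left of them, and the remaining lists overlap.

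The genes whose pattern over the 6 libraries came nearest to 4 of the 10 genes were found by the root mean square difference of centred log2 CPM, among 14291 tested genes with a mean of at least 1 CPM. Nearest to Tek were Gm43412 (0.0956), Cc2d2a (0.101) and C77080 (0.120), and nearest to Kdr were Sorcs2 (0.226), Fscn1 (0.249) and Plekhg1 (0.277). Nearest to Angpt1 were Uimc1 (0.0230), Homer1 (0.0282) and Tdrd3 (0.0297). The nearest genes to Emcn were Gm10184 (0.0699), Morn1 (0.0718) and March2 (0.0745). None of these 12 is among the 10 genes or in the gene lists above.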

How the data were processed

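RNA was isolated from the sorted LSK cells of each mouse (6 mice), and libraries were made with a stranded total RNA kit that amplifies small inputs. The authors aligned the reads to GRCm38 (mm10) with GSNAP 2015-12-31 and counted unique alignments in the genes of Ensembl 81 with featureCounts 1.5.0, by strand (setting 1), where the mapping quality was at least 1. Deposited were these raw read counts per gene, neither normalized nor pooled, beside the exon length of each gene. Only unique alignments entered, so that reads shared by near-identical genes were lost. Symbols were taken from GENCODE M21 and named 98.8% of genes.

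Genotypes were compared with edgeR 4.0.16 under R 4.3.3 (TMM, filterByExpr, quasi-likelihood test with genotype as the only term, Benjamini-Hochberg adjustment over 15184 genes, threshold 0.05). The standard error of a log2 fold change was its size over the root of the F statistic. Differences within a library series, which was read from the library numbers, used log2 CPM (prior count 2). The code was tested on simulated data. Ratios between genes were compared with exact permutation tests (scipy 1.17.1). Replicates are separate mice, numbered in accession order. DESeq2 1.42.0 and other settings were alternatives.

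The 10 genes and the gene lists were chosen with earlier results of these data known. Named in the text are the 10 genes, Setd1b, the 3 smallest adjusted p-values of each list, the ligands, co-receptors and defining markers, neighbouring receptor genes and the nearest genes by pattern. Some items are not reported here. Mcam, Epas1, Smad4, Smad7, Tgfb1, Hoxb5, the stem cell and monocyte markers that did not pass and the gate markers were named after their values had been seen.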

Additional observations from a re-analysis of the deposited data

How the results depend on the processing

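Over up to 16 other settings, Tek (log2 fold change 0.61 to 1.05), Tie1 (0.67 to 0.82) and Rhoj (1.55 to 2.09) passed the threshold in every one, Kdr (1.57 to 2.18) in 14 of 15, Pecam1 (-0.45 to -0.30) in 15 of 16 and Flt4 in 4 of 16. The number of genes called was 1164, and it was 513 at a threshold of 0.01, 341 against a change of 1.2-fold, and 604 to 1125 without 1 library (604 without cKO 2, 665 without Ctrl 3, 739 without cKO 3). It rose to 1682 with no filter on low counts and to 1269 with DESeq2. With a trend against gene length or against GC content removed, it was 1587 and 1439, in that order. Of the 10 genes, 5 were called higher, 4 with the library series as a covariate, and 3 to 4 without 1 library, the 3 (Tek, Tie1 and Rhoj) without cKO 2. The 1 gene called lower, Pecam1, stayed so without any 1 library and was lost (0 called) against 1.2-fold. The endothelial markers called rose from 0 to 1, Robo4, with no filter on low counts (25890 genes). Without 1 library the log2 fold change of Angpt1 ran from -0.14 to 0.039, with a change of sign without Ctrl 1 (0.039) and without Ctrl 3 (0.0051). The cause of these differences was not tested. With at least 10 counts in every library Kdr and Flt1 were not tested. Depth limits Flt1, Flt4, Kdr and Rhoj most, which rest on 6 to 78 counts per library. The study describes the Ctrl and cKO mice as littermates. No paired analysis was possible because the labels give neither litters nor replicate numbers that the groups share.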

Other observations

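Among the proteins that the sort used, the genes of the positive markers had log2 fold changes of -0.04 for Kit (adjusted p = 0.84) and -0.23 for Ly6a (adjusted p = 0.33) with edgeR. The gene of the leukocyte antigen CD45, Ptprc, stood at 269 to 336 CPM and differed by 0.14 on the log2 scale (adjusted p = 0.29). Itgam, which encodes the myeloid lineage marker CD11b, was detected in every library and was higher in those labelled cKO (35.8, 37.1 and 40.1 CPM in Ctrl 1, 2 and 3 and 44.2 to 58.3 CPM in cKO, log2 fold change 0.43 ± 0.10 SE, adjusted p = 0.019 with edgeR). The transcripts of Cd4 (1.89 ± 0.534 against 3.38 ± 0.455 CPM, adjusted p = 0.13) and of the natural killer marker Klrb1c (1.31 ± 0.937 against 2.01 ± 0.646 CPM, adjusted p = 0.47) were low. These genes were chosen after the data had been seen.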
